A study of Arabidopsis thaliana with 6 samples.

Results

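The genes described here are the 46 Arabidopsis thaliana loci that encode core and linker histones, out of the 32948 genes in the table. They were chosen by locus identifier and sorted by the variant they encode: 5 genes for H3.1, 3 for H3.3, 3 other H3 genes, 8 for H4, 4 for canonical H2A, 2 for H2A.X, 3 for H2A.W, 4 for H2A.Z, 11 for H2B and 3 for the linker histone H1. Messenger RNA had been sequenced from seedlings of the mutant genotype cnd1-3 and of the wild-type accession Col-0, with 3 libraries of each. The mutant carries no other allele in the labels, no treatment is given for either genotype, and neither the age of the plants nor how they were grown is stated in the sources used here. CND1 could not be tied to a row of the table, which leaves the genotype labels without a check on the mutated gene itself. Nothing in the labels says that libraries of 1 genotype came from separately grown plants, so p-values measure the spread between these libraries, which may be technical.

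The libraries held 22125814 to 23081866 reads assigned to genes for cnd1-3 and 23290031 to 30455907 for Col-0. Levels are FPKM, that is, fragments scaled to gene length and to the total assigned to genes in that library, and errors are SD over 3 libraries. Where 3 values are given for a genotype, they are those of libraries 1, 2 and 3 in that order. The leaf genes RBCS1A and CAB1 stood at 19459 FPKM or more in every library, while the pollen gene VGD1 and the seed genes CRU3 and OLEO1 were listed at 0 in all 6. The root hair genes EXPA7, COBL9 and PRP3 reached at most 0.074 FPKM, so the labelled seedlings carried shoot RNA and next to none of the root hair messages.

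Histones package DNA into nucleosomes, each an octamer of H2A, H2B, H3 and H4, and H1 binds the linker between them. H3.1, H4 and the canonical H2A and H2B are made mainly in S phase and laid down behind the replication fork, H3.1 by the chaperone complex CAF-1. Replacement variants are made and deposited through the cell cycle: H3.3 enters transcribed genes through HIRA and ATRX, and H2A.Z enters by way of the SWR1 complex. H2A.X is the form phosphorylated at DNA breaks, H2A.W marks heterochromatin, and CENH3 builds centromeres. Plant histone messages carry poly(A) tails, unlike the replication-dependent histone messages of animals, so that oligo-dT purification retains them. For the comparison the H3.1, H4, canonical H2A and H2B genes were taken as replication-coupled, 28 in all, and the H3.3 and H2A.Z genes as replacement, 7 in all. The H2A.X, H2A.W, H1 and other H3 genes, 11 in all, were left outside both classes.

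A known feature of plant histone promoters is the octamer CGCGGATC. It was searched for on both strands in the 250 bases before each annotated gene start in the TAIR10.1 genome of RefSeq. It occurred in 10 of the 46 histone windows, or 21.7%, and in 37 of the 27443 windows of all protein-coding genes, or 0.135%. The 10 were HTR1, HTR2, HTR9, HTR5, AT1G07660, AT5G59690, HTA10, HTA13, HTA6 and H1.1, while 0 of 11 H2B windows held it. Matches to the E2F-type letters TTTCCCGC, TTTGGCGC or TTTGGCGG, on either strand, occurred in 2 histone windows, 4.35%, against 1.48% of all windows. A match describes letters in a window and is no evidence of a bound factor. The windows below belong to HTA10 (chr1:18926561-18926810, plus strand), the canonical H2A gene with the highest level, and to AT5G59690 (chr5:24051224-24051473, plus strand), the H4 gene with the highest level. The next pair are the H4 genes AT3G45930 (chr3:16883066-16883315, plus strand) and AT3G46320 (chr3:17020429-17020678, minus strand), the only members with an E2F-type match. H1.3 (chr2:7845673-7845922, plus strand) is shown because it had the largest fold change between genotypes, although that rests on only 15 reads in cnd1-3. Each is written 5′ to 3′ toward the gene, with octamer and E2F-type matches in capitals.
HTA10: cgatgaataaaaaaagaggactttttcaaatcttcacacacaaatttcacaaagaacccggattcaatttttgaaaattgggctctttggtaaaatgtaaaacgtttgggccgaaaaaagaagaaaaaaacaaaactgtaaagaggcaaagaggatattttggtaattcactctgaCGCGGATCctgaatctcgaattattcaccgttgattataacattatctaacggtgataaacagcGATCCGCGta
AT5G59690: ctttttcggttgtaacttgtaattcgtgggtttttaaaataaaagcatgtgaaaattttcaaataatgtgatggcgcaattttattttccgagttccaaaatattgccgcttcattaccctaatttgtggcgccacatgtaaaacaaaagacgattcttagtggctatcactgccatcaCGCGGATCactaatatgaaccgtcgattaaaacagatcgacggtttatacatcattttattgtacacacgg
AT3G45930: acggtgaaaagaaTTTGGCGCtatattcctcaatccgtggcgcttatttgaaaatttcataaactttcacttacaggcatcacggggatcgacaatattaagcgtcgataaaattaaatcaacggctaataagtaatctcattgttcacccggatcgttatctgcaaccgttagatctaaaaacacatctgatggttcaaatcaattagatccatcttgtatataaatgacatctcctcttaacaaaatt
AT3G46320: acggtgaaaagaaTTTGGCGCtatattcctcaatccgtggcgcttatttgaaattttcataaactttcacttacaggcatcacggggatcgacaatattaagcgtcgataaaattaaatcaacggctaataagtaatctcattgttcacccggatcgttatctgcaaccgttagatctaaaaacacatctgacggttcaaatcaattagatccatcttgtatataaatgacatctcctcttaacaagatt
H1.3: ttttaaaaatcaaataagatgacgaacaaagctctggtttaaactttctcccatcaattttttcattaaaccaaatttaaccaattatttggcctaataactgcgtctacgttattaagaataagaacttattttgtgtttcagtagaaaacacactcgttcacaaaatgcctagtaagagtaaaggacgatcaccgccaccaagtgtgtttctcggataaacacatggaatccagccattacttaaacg
HTA10 holds the octamer at 2 places, and the windows of AT3G45930 and AT3G46320 are identical at 247 of 250 bases. The window of H1.3 holds neither motif. The 10 genes with the octamer had a median log2 fold change of -0.24 and the 32 tested genes without it -0.36. Their levels also differed, with median FPKM of 109 and 49.1.

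Histone messages were lower in cnd1-3 than in Col-0 across most families. Of 42 members with a mean of at least 0.5 FPKM, 11 fell, 0 rose and 31 did not pass, by limma on log2(FPKM + 0.5) at an adjusted p of 0.05 (Benjamini-Hochberg over 17096 genes). That is 26.2% of the tested members called lower, while 7.59% of all tested genes were called lower and 3.5% higher (1298 and 598 genes; 999 and 980 after quantile normalization, 1165 and 892 after median-ratio scaling, 1025 and 1152 with the trend of GC content and length removed). At an unadjusted p under 0.05, 25 members were lower, against 18.5% of all tested genes, and 0 were higher. Voom on reads recovered from the FPKM called 14 of 41 lower, against 8.51%, and 0 higher. The log2 fold change was below 0 for 40 of the 42, or 95.2%, against 59.9% of all tested genes. Its median was -0.31, against -0.05 for all tested genes. For 21 members every cnd1-3 library lay below every Col-0 library, which held for 21.5% of all tested genes, and for 0 members the reverse held, against 12.3%. Most differences were small: leaving aside HTA4 and H1.3, called members had log2 fold changes of -0.27 to -0.45. The count depended on single libraries, since 11 members became 2 without cnd1-3 library 1, 8 without library 2 and 2 without library 3, where 3.78%, 4.43% and 4.88% of all tested genes were lower. It became 3 without Col-0 library 1, 2 without library 2 and 21 without library 3, against 5.51%, 3.59% and 7.55%, whereas 38 to 41 members were below 0 in each alternative fit. With no minimum level 6 members were called, against 4.4% of all genes. Seedlings are mixtures of cells, in which fewer cells of a type and less RNA per cell cannot be told apart.

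**Figure D1:**
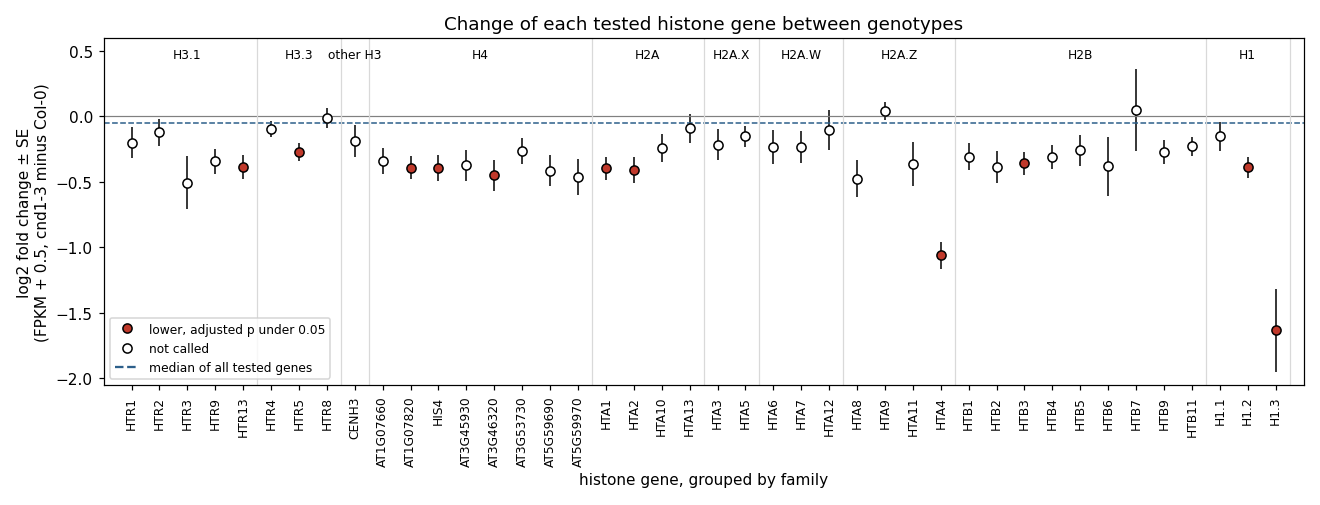
Log2 fold change (cnd1-3 over Col-0, limma on log2(FPKM + 0.5)) of the 42 tested histone genes by family, with SE as bars, called genes filled, and a dashed line at the median of all tested genes. All but HTA9 and HTB7 lie below 0, and HTA4 at -1.06 and H1.3 at -1.63 stand farthest out.

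**Figure D2:**
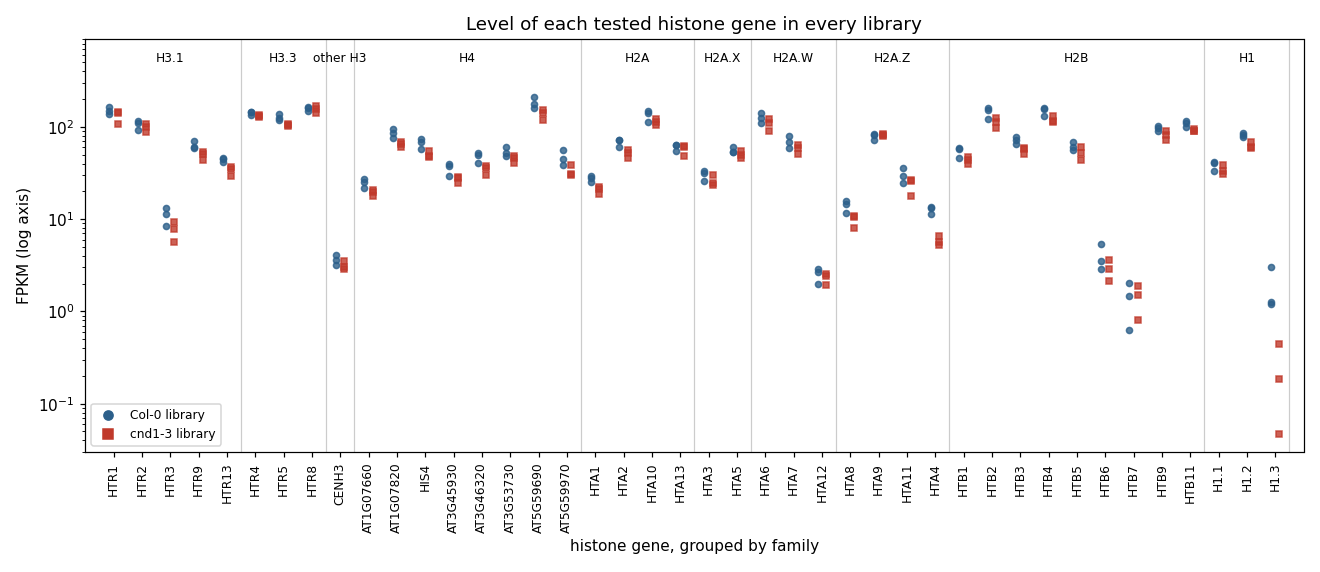
FPKM of each of the 42 tested histone genes in every library on a log axis, grouped by family, with Col-0 libraries as circles and cnd1-3 libraries as squares. In most genes the squares sit slightly below the circles, and the gap is widest for HTA4 and H1.3.

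The 5 H3.1 genes, whose protein is the main H3 of replicating chromatin, were all below 0 on the log2 scale and 1 of them fell. HTR13 (AT5G10390, chromosome 5, 3268847 to 3269594) stood at 35.3, 36.5 and 29.7 FPKM in cnd1-3 and 45.3, 45.9 and 41.4 in Col-0. Its groups did not overlap (log2 fold change -0.39, SE 0.09, adjusted p = 0.0294, limma). HTR1, the H3.1 gene with the highest level, stood at 142, 144 and 108 FPKM in cnd1-3 and 149, 163 and 138 in Col-0. Libraries 1 and 2 of cnd1-3 lay within the Col-0 range and library 3 below it, and the difference did not pass (log2 fold change -0.20, SE 0.12, adjusted p = 0.302; -0.06 without cnd1-3 library 3). HTR3, which had the largest H3.1 fold change, stood at 7.91, 9.33 and 5.62 FPKM in cnd1-3 and 13.3, 11.3 and 8.35 in Col-0 (log2 fold change -0.50, SE 0.20, adjusted p = 0.137; -0.31 without cnd1-3 library 3). Its groups overlapped, and 328 of its bases lie on the same strand in AT3G27380, so reads there cannot be assigned to 1 gene. HTR9, the neighbour of HTR13, had a log2 fold change of -0.34 with no overlap between groups (adjusted p = 0.0513), and HTR2 of -0.12 (adjusted p = 0.478).

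Of the 3 H3.3 genes, which supply H3 outside replication, 1 fell. HTR5 (AT4G40040, chromosome 4, 18557149 to 18558945) stood at 108, 103 and 105 FPKM in cnd1-3 and 126, 137 and 119 in Col-0. Every cnd1-3 library was below every Col-0 library (log2 fold change -0.27, SE 0.07, adjusted p = 0.042, limma). HTR8, with the highest H3.3 level, stood at 157, 166 and 143 FPKM in cnd1-3 and 163, 159 and 147 in Col-0, and the genotypes overlapped widely (log2 fold change -0.01, SE 0.08, adjusted p = 0.944; 0.04 after median-ratio scaling). HTR4, which lies next to HTR5 on chromosome 4, had a log2 fold change of -0.09 (adjusted p = 0.359).

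Among the other H3 genes, only CENH3 passed the minimum level. CENH3, the centromeric H3, stood at 2.87, 3.53 and 3.02 FPKM in cnd1-3 and 4.13, 3.61 and 3.21 in Col-0 (log2 fold change -0.19, SE 0.12, adjusted p = 0.349), and the genotypes overlapped. HTR6, a minor H3 gene, was below the minimum, with 7 reads in all cnd1-3 libraries and 25 in Col-0. By library these were 4, 2 and 1 reads in cnd1-3 and 4, 15 and 6 in Col-0. Its groups overlapped, and most Col-0 reads came from library 2. The read share was 3.01-fold higher in Col-0, with a 95% exact counting interval of 1.27 to 8.25 that covers counting error only. HTR10, which encodes the H3 of sperm cells, was listed at 0 in all 6 libraries, where 3 reads would have been at least 0.137 FPKM.

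H4, which pairs with every H3 variant, had log2 fold changes below 0 at all 8 of its genes, from -0.46 to -0.26. Each had every cnd1-3 library below every Col-0 library, which held for 21.5% of all tested genes. The test was passed by 3 of the 8, or 37.5%, against 7.59% of all tested genes called lower. The 8 genes were measured in the same libraries and are not independent results. AT1G07820 (chromosome 1, 2421089 to 2422066) stood at 64.8, 68.9 and 60.2 FPKM in cnd1-3 and 85, 93.9 and 76.5 in Col-0 (log2 fold change -0.39, SE 0.09, adjusted p = 0.0264, limma). HIS4 (AT2G28740, chromosome 2, 12329345 to 12330059) stood at 48.7, 55.4 and 47 FPKM in cnd1-3 and 73.6, 67.9 and 57.9 in Col-0 (log2 fold change -0.39, SE 0.10, adjusted p = 0.0404). The third called gene, AT3G46320 (chromosome 3, 17019785 to 17020428), stood at 36, 37.5 and 29.9 FPKM in cnd1-3 and 49.1, 52.5 and 40.3 in Col-0 (log2 fold change -0.45, SE 0.12, adjusted p = 0.0434). In each of the 3, Col-0 library 3 was the lowest of its group and cnd1-3 library 3 the lowest of all. AT5G59690, the most abundant, stood at 142, 153 and 118 FPKM in cnd1-3 and 177, 210.4 and 162 in Col-0 and did not pass (log2 fold change -0.41, SE 0.12, adjusted p = 0.0608). AT5G59970, with the largest H4 fold change, stood at 31.2, 39 and 30.5 FPKM in cnd1-3 and 44.9, 55.8 and 39.1 in Col-0 and did not pass either (log2 fold change -0.46, SE 0.14, adjusted p = 0.0666). The remaining 3 had adjusted p-values of 0.0627 for AT1G07660, 0.0784 for AT3G45930 and 0.126 for AT3G53730. Of the 150-base windows starting at each base, AT3G45930 and AT3G46320 share 11, about 2% of the windows of each. Only exact matches were counted, so reads from nearly identical sequence were not assessed.

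Canonical H2A fell at 2 of 4 genes. HTA1 (AT5G54640, chromosome 5, 22196287 to 22197492), known as RAT5 from its role in Agrobacterium transformation, stood at 18.9, 22.2 and 21.3 FPKM in cnd1-3 and 29.4, 28.1 and 25.1 in Col-0 (log2 fold change -0.40, SE 0.09, adjusted p = 0.0252, limma). HTA2 (AT4G27230, chromosome 4, 13637236 to 13638449) stood at 51.9, 56.1 and 45.6 FPKM in cnd1-3 and 72.5, 71.6 and 60.1 in Col-0 (log2 fold change -0.41, SE 0.10, adjusted p = 0.0351). Neither gene had overlapping groups. HTA10 is the most abundant and stood at 113, 122 and 106 FPKM in cnd1-3 and 142, 149 and 114 in Col-0; its groups overlapped, because Col-0 library 3 lay below cnd1-3 library 2 (log2 fold change -0.24, SE 0.11, adjusted p = 0.169). HTA13 had a log2 fold change of -0.09 (adjusted p = 0.637), and it overlaps AT3G20680 on the opposite strand by 79 bases.

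H2A.X and H2A.W genes, for break-marked and heterochromatic nucleosomes, had 0 members called among 5 by limma, 0 with an unadjusted p under 0.05 and 0 called by voom. The shares of all tested genes, in either direction, were 11.1%, 28.6% and 12.6%. With only 5 genes, these counts do not show that the families were unchanged, and all 5 had log2 fold changes below 0. HTA5, the more abundant H2A.X gene, stood at 50.1, 54.2 and 46.5 FPKM in cnd1-3 and 54.1, 60.6 and 53 in Col-0 (log2 fold change -0.15, SE 0.08, adjusted p = 0.264), and HTA3 stood at 24.5, 29.8 and 23.3 FPKM in cnd1-3 and 33.4, 31.3 and 25.8 in Col-0 (log2 fold change -0.22, SE 0.12, adjusted p = 0.278). Both overlapped between genotypes. HTA6, the H2A.W gene with the highest level, stood at 110.4, 122 and 89.8 FPKM in cnd1-3 and 126, 143 and 109 in Col-0 (log2 fold change -0.23, SE 0.13, adjusted p = 0.282; -0.11 without cnd1-3 library 3). HTA7, with the largest H2A.W fold change, stood at 59, 64.4 and 50.3 FPKM in cnd1-3 and 67.8, 78.7 and 58.5 in Col-0 (log2 fold change -0.23, SE 0.12, adjusted p = 0.254; -0.13 without Col-0 library 2). HTA12 had a log2 fold change of -0.11 (adjusted p = 0.691), which was 0.04 after quantile normalization.

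H2A.Z, the variant of promoters and of repressed, responsive genes, had 1 gene that fell, 2 others below 0 and 1 above. HTA4 (AT4G13570, chromosome 4, 7884516 to 7885982) stood at 6.56, 5.66 and 5.25 FPKM in cnd1-3 and 13.2, 11.4 and 13.5 in Col-0. The highest cnd1-3 value was below the lowest Col-0 value by a wide margin. Its mean was 5.82 ± 0.668 against 12.7 ± 1.14 FPKM, 54.1% lower, from 298 and 770 reads (log2 fold change -1.06, SE 0.10, adjusted p = 0.000758, limma), and it was called in all 16 alternative fits with adjusted p-values up to 0.00413. HTA4 shares 212 bases with AT4G13564 on the opposite strand, where levels averaged 1.33 ± 0.268 FPKM in the mutant and 2.52 ± 1.33 in the wild type (adjusted p = 0.157). HTA9, the most abundant H2A.Z gene, stood at 83.1, 79.9 and 81.1 FPKM in cnd1-3 and 72.7, 83.2 and 81.9 in Col-0 and overlapped between genotypes (log2 fold change 0.04, SE 0.07, adjusted p = 0.75). HTA8 had a log2 fold change of -0.48 with groups that did not overlap (adjusted p = 0.0644), and HTA11 of -0.36 (adjusted p = 0.201; -0.18 without cnd1-3 library 3). HTA9 therefore made up more of the summed H2A.Z message, with 65.5, 65.5 and 72.3% in cnd1-3 and 55.9, 57 and 62.2% in Col-0, and those groups did not overlap.

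H2B is the largest family, with 11 genes, of which 9 were tested and 1 fell. HTB3 (AT2G28720, chromosome 2, 12326808 to 12327808), 1 of the pair beside HIS4, stood at 50.7, 59.6 and 57.7 FPKM in cnd1-3 and 78.6, 72 and 65.5 in Col-0. Its groups did not overlap (log2 fold change -0.36, SE 0.09, adjusted p = 0.0375, limma). HTB4, the most abundant, stood at 114, 131 and 116 FPKM in cnd1-3 and 157, 159 and 131 in Col-0 and did not pass, and the lowest Col-0 value was just above the highest of cnd1-3 (log2 fold change -0.31, SE 0.09, adjusted p = 0.0653). HTB2, with the largest H2B fold change, stood at 112, 126 and 97 FPKM in cnd1-3 and 154, 161 and 123 in Col-0 and its groups overlapped (log2 fold change -0.39, SE 0.12, adjusted p = 0.0763). The other 6 did not pass: HTB1, HTB5, HTB6, HTB9 and HTB11 had log2 fold changes of -0.38 to -0.23, and HTB7 one of 0.05 from 70 and 86 reads. HTB8, which encodes the H2B of sperm, was listed at 0 in every library. HTB10 was too, and its 522 bases lie entirely within HTA12 on the opposite strand, where reads cannot be placed without strand.

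Of the 3 linker histone genes, 2 fell. H1.2 (AT2G30620, chromosome 2, 13044931 to 13046682), one of the pair of main H1 genes, stood at 58.3, 68.1 and 60.5 FPKM in cnd1-3 and 77.2, 86.4 and 81.3 in Col-0, and its groups did not overlap (log2 fold change -0.39, SE 0.08, adjusted p = 0.0176, limma). H1.1, the other main H1 gene, had a log2 fold change of -0.15 (adjusted p = 0.402). H1.3 (AT2G18050, chromosome 2, 7845923 to 7847031) is the stress-inducible H1, known from drought and low light and from guard cells. It stood at 0.185, 0.0467 and 0.448 FPKM in cnd1-3 and 1.26, 1.22 and 3.02 in Col-0. Those values rest on 4, 1 and 10 reads in cnd1-3 and 37, 31 and 68 in Col-0, a 7.65-fold higher read share in Col-0 with a 95% exact counting interval of 4.48 to 14. All cnd1-3 values lay below all Col-0 values (log2 fold change -1.63, SE 0.32, adjusted p = 0.0148). H1.3 averaged 0.227 FPKM in cnd1-3, below the minimum level, and 1.83 in Col-0, so it was tested only through its Col-0 level. The call held in all 15 alternative fits that tested it, with log2 fold changes of -3.09 to -1.16 and adjusted p-values up to 0.0484. Those fits reuse the same few cnd1-3 reads and are not independent results. The fold change also depended on the pseudocount, at -2.64 with 0.1 and -1.16 with 1, so its size is not well determined.

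**Figure D3:**
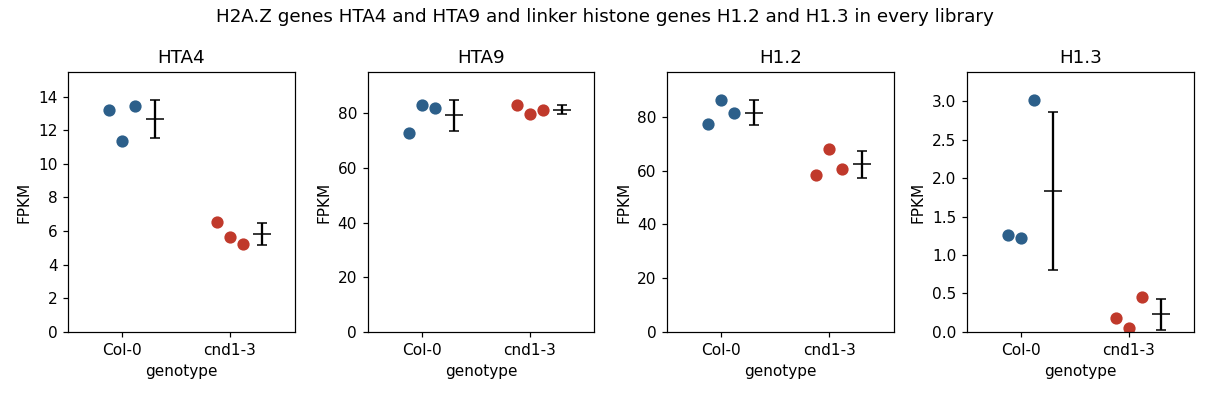
FPKM of HTA4, HTA9, H1.2 and H1.3 in each library (points), with the mean and SD of 3 as bars, and each panel on its own axis from 0. The genotypes are apart in HTA4, H1.2 and H1.3 and overlap in HTA9.

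The other 9 called genes did not hold in every fit without 1 library. All 9 kept their call without Col-0 library 3, with adjusted p-values of 0.0142 to 0.0333, and 6 of them also without cnd1-3 library 2, HTR5, AT3G46320 and HTB3 being the exceptions at 0.125, 0.0615 and 0.0604. Without cnd1-3 library 1 the adjusted p-values were 0.0661 to 0.127 and without library 3 they were 0.0541 to 0.112. Without Col-0 library 2 they were 0.0662 to 0.138. Without Col-0 library 1 H1.2 kept its call at 0.0276 and the other 8 had 0.0662 to 0.11. HIS4, HTB3 and HTR5 also missed the threshold once the trend with GC content and length was removed, at 0.109, 0.139 and 0.0852. Their log2 fold changes were then smaller, at -0.25, -0.22 and -0.19. HTB3 and HTR5 missed it narrowly after median-ratio scaling, at 0.0519 and 0.0534.

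Summed over each family, histone message was between 7.57% and 24.1% lower in cnd1-3, for the 9 families plotted, with no test of the sums. The 8 H4 genes summed to 417, 451 and 368 FPKM in cnd1-3 and 542, 609 and 479 in Col-0, 24.1% lower on average and with no overlap. H2B summed to 544, 614 and 522 against 720.4, 745 and 616, 19.3% lower and with no overlap. H1 summed to 89.8, 107 and 94.4 against 112, 129 and 124, 20.4% lower and also without overlap. H3.3, at 393, 404 and 379 against 433, 429 and 410, was 7.57% lower without overlap, while the 14.6% for H3.1 came with overlapping groups (335, 351 and 274 against 383, 401 and 340.5). Canonical H2A was 16.7% lower, H2A.X 11.5%, H2A.W 14.8% and H2A.Z 11.4%. After median-ratio scaling the ratio of means, cnd1-3 over Col-0, was 0.79 for H4, 0.96 for H3.3 and 0.92 for H2A.Z. Without that scaling these ratios were 0.76, 0.92 and 0.89.

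**Figure D4:**
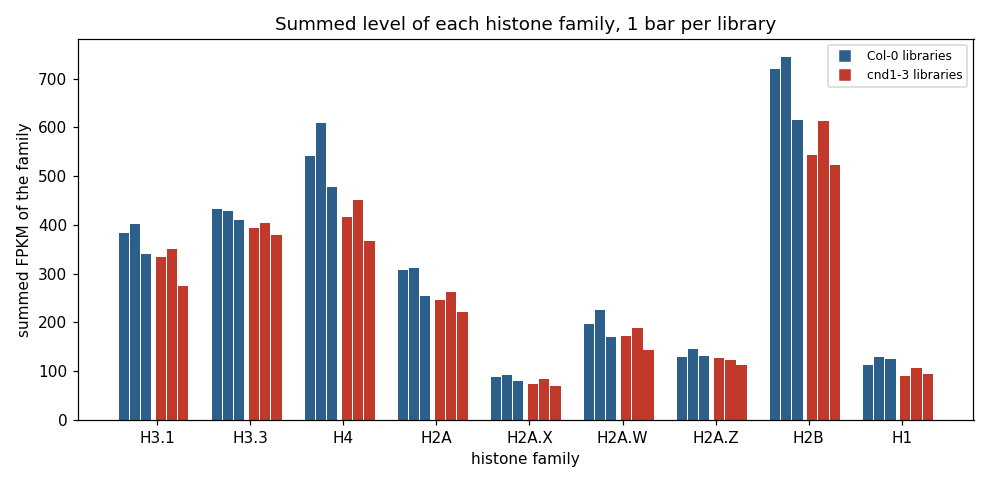
Summed FPKM of each histone family except the other H3 genes, with 1 bar for each library, Col-0 before cnd1-3 and from library 1 to 3. On these unscaled FPKM, H4, H2B, H1, H3.3 and H2A.Z show no overlap between genotypes, and the H3.1, canonical H2A, H2A.X and H2A.W sums overlap.

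The replication-coupled genes summed to 1535 ± 146 FPKM in cnd1-3 and 1903 ± 194 in Col-0, 19.3% lower. The replacement genes summed to 512 ± 18.5 and 559.8 ± 16.8, 8.49% lower. The median log2 fold change was -0.35 over 26 tested replication-coupled genes, 7 of them called, and -0.27 over 7 replacement genes, 2 of them called. Over all tested genes the median was -0.05 and 7.59% were called lower. With H2B left out, the replication-coupled median was -0.39. With H2A.X and H2A.W counted as replacement, the replacement median was -0.22. Whether the classes differ was not tested. Replacement genes made up 25.1 ± 1.17% of the message of both classes in cnd1-3 and 22.8 ± 1.31% in Col-0, with overlap. H3.3 made up 54, 53.5 and 58% of H3.1 plus H3.3 in cnd1-3 and 53, 51.7 and 54.6% in Col-0, and H2A.Z 19.9 ± 1.15% and 19.2 ± 1.42% of all H2A, and both shares overlapped between genotypes.

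Libraries differed within each genotype as well. Relative to the Col-0 mean, the median replication-coupled gene stood at -0.34, -0.20 and -0.48 (log2) in cnd1-3 libraries 1, 2 and 3 and at 0.07, 0.13 and -0.17 in the Col-0 libraries. Library 3 was the lowest of each genotype and library 2 the highest. Replacement genes stood at -0.17, -0.20 and -0.28 in cnd1-3 and at 0.03, 0.07 and -0.09 in Col-0. All tested genes stood at -0.07 to 0.06 in the 6 libraries. The 7 genes of dividing cells stood at -0.44, 0.25 and -0.17 in cnd1-3 and at -0.34, 0.48 and -0.08 in Col-0. Library 2 was highest in both genotypes, as for the replication-coupled genes. Library 1 was the lowest in both, however, where the replication-coupled genes were lowest in library 3. The part of cell division in the histone levels was not tested.

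**Figure D5:**
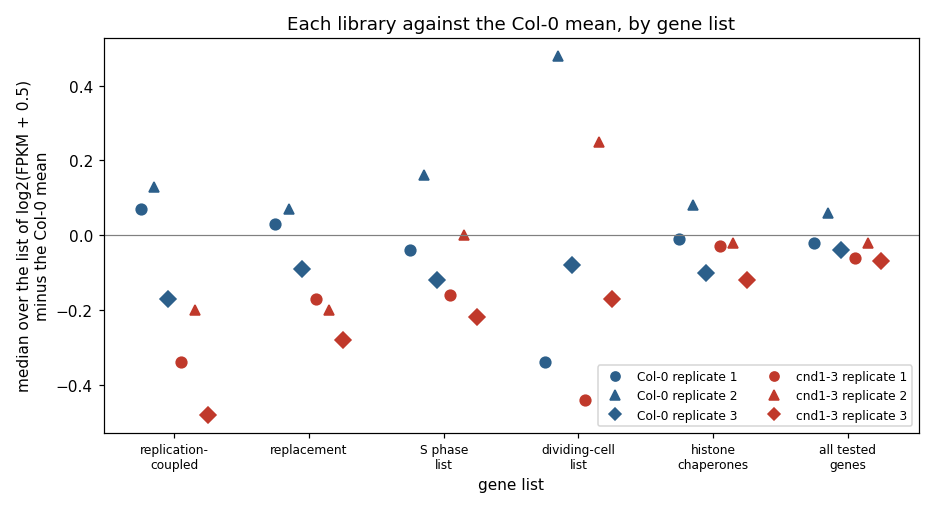
Median over each gene list of log2(FPKM + 0.5) minus the Col-0 mean, 1 point for each library, for both histone classes, S-phase genes, genes of dividing cells, chaperones and all tested genes. Both histone classes lie below 0 in all 3 cnd1-3 libraries, and the genes of dividing cells spread widely within each genotype.

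Among 17 S-phase genes, which serve DNA replication and nucleotide supply, 1 fell and 0 rose. Of all tested genes 7.59% were called lower and 3.5% higher. The median log2 fold change of the 17 was -0.12, against -0.05 for all tested genes. An unadjusted p under 0.05 in either direction (limma) was reached by 2, against 28.6% of all tested genes. TSO2, a small subunit of ribonucleotide reductase, stood at 37.9, 39.2 and 32.1 FPKM in cnd1-3 and 50.3, 57.7 and 47.4 in Col-0, without overlap (log2 fold change -0.50, SE 0.10, adjusted p = 0.0167, limma; 0.057 without Col-0 library 2). Of the 7 genes of dividing cells, limma called 0 at either direction, 0 had an unadjusted p under 0.05 and voom on recovered reads called 0. The cytokinesis syntaxin KNOLLE stood at 1.29, 2.87 and 2.28 FPKM in cnd1-3 and 1.49, 3.54 and 2.11 in Col-0 (adjusted p = 0.844). The mitotic kinase gene CDKB2;1 stood at 2.07, 2.78 and 2.12 FPKM in cnd1-3 and 1.85, 3.25 and 1.88 in Col-0 (adjusted p = 0.954), and both overlapped between genotypes.

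Of 28 tested genes for histone chaperones and remodelers, limma called 0. An unadjusted p under 0.05 in either direction was reached by 6, against 28.6% of all tested genes, and voom on recovered reads called 1. NAP1;2, a chaperone of H2A and H2B, stood at 107, 106 and 96.6 FPKM in cnd1-3 and 113, 111 and 100.4 in Col-0 (adjusted p = 0.576). NRP1, a related chaperone, stood at 49.4, 52.9 and 40.6 FPKM in cnd1-3 and 46.6, 52.7 and 51.4 in Col-0 (adjusted p = 0.643), and both overlapped between genotypes. A further 4 genes were picked after their values were seen. The CAF-1 subunit MSI1 averaged 14.8 ± 1.14 against 12.2 ± 0.507 FPKM (log2 fold change 0.27, adjusted p = 0.0684) and ATRX 4.32 ± 0.0413 against 3.47 ± 0.102 FPKM (0.28, adjusted p = 0.0756), each higher in every cnd1-3 library than in any Col-0 library. ATRX passed under voom (0.0266) and both passed after median-ratio scaling (0.0259 for MSI1 and 0.0479 for ATRX). The other CAF-1 subunits and HIRA, set beside them, did not pass. The CAF-1 subunit FAS1 had a log2 fold change of -0.28, lower without overlap (adjusted p = 0.13, limma), and the subunit FAS2 one of -0.12 (adjusted p = 0.648). HIRA, the other H3.3 route, stood at 0.03 (adjusted p = 0.9). ASF1B, which hands H3 and H4 to CAF-1, averaged 5.22 ± 0.772 against 7.2 ± 1.07 FPKM (adjusted p = 0.0732), and DDM1, the remodeler that places H2A.W, 1.65 ± 0.14 against 2.4 ± 0.445 FPKM (adjusted p = 0.0956).

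Histone genes sit close together at several places: 19 members form 8 groups in which neighbours are at most 50000 bases apart. HTB3 and HIS4, convergent on chromosome 2, were both called. On chromosome 5 HTR13 fell while HTR9 missed the threshold, and on chromosome 4 HTR5 fell while the adjacent HTR4 did not pass. In the other groups AT1G07820 was the only called gene. Besides HTR3, HTA13, HTA4 and HTB10, genes annotated on the opposite strand overlap HTA3, HTA12, HTB9, H1.1, HTA9 and H1.2, the last 2 by 21 bases each, and whether reads were counted by strand is not stated.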

How the data were processed

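The authors deposited FPKM per gene and library, in which read pairs are scaled to gene length and library total. HISAT2, featureCounts, Subread, DESeq2 and TAIR10 appear in the submitters' processing notes, which as given here hold no settings. Per the labels' protocols, oligo-dT purified mRNA gave read pairs of 150 bases. Gene coordinates, lengths and promoter windows came from TAIR10.1 (RefSeq), which matched 32548 of 32948 genes. The sequence of 1 promoter window is not reported here.

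Genes with a mean of at least 0.5 FPKM over 6 libraries were tested with limma 3.58.1 (R 4.3.3, eBayes with trend) on log2(FPKM + 0.5), which draws fold changes of low genes toward 0. P-values were adjusted by Benjamini-Hochberg over 17096 genes at a threshold of 0.05. FPKM times length gave whole reads, within 0.01, for 99.34% to 99.37% of values above 0. Voom was run on these reads and made 2114 calls, against 1896 by the main test. HTR13 gave no whole reads at its annotated length and stayed out of voom. Intervals from reads cover counting error only.

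On simulated data for this comparison with 17096 genes, the test recovered 76% of 50 genes set 2-fold higher and 82% of 50 set 2-fold lower. At 4-fold it recovered 94% of 50 higher and 98% of 50 lower genes, and it called 0% of unchanged genes. No change smaller than 2-fold was simulated, so recovery at the size of most called members is not known. The simulated noise was independent between genes, without shifts shared by a library. Values in every library are given for all called members and, in each family, the member with the highest mean and that with the largest fold change. From each other list they are given for called genes or for the 2 with the highest mean. Means are given for 4 chaperone and remodeler genes picked after their values were seen, and fold changes alone for FAS1, FAS2 and HIRA beside them. Members and lists were chosen with earlier results of these data known. Tables and figures were made in Python 3.11.15 using numpy 2.4.6, pandas 2.3.3 and matplotlib 3.10.9. The alternatives were quantile normalization, median-ratio scaling, other minimum levels (none, or 2 FPKM), other pseudocounts (0.1 and 1), removal of the trend with GC content and length, the replicate number as a block, voom, other class definitions and each library left out.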

Additional observations from a re-analysis of the deposited data

How the results depend on the processing

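With single libraries left out, calls over all genes ranged from 906 to 1837 (1896 with all 6), histone genes called lower from 2 to 21 (11 with all 6), chaperones called lower from 0 to 1, S-phase genes called lower from 0 to 2, and the replacement median from -0.32 to -0.18 (main value -0.27). Whether the replicate numbers pair the samples was not tested. Correlations of deviations at the same number were 0.032, 0.157 and 0.263, and those at unlike numbers ran from -0.237 to 0.085. Libraries 2 and 3 of cnd1-3 correlated best with the Col-0 library of their own number. Library 1 of cnd1-3 correlated best with Col-0 library 2 (0.085). With the replicate number as a block, 2879 genes were called, 28 histone genes were lower, and 10.9% of all tested genes were lower. Among H2A.X and H2A.W genes the block called HTA6 and HTA7 (adjusted p = 0.0269 and 0.0296, limma). It also called 2 chaperones lower and 1 higher, and 3 S-phase genes lower. With the block and the trend of GC content and length removed, 3048 genes were called, 19 histone genes were lower against 7.82% of all tested genes, 2 chaperones were lower and 2 higher, and the replacement median was -0.19. Without the block, removing that trend gave -0.19 for this median and called 2 chaperones higher, as median-ratio scaling and quantile normalization did, while voom called 1. With no minimum level 6 histone genes were called lower, in a fit of 22981 genes. The causes of these shifts were not tested.

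A few uncalled genes changed sign. HTR8 was at 0.04 after median-ratio scaling, with the trend removed and with the trend removed and the block, and at -0.06 to 0.05 with a library left out. HTA12 was at 0.04 and KNOLLE at 0.02 after quantile normalization, and NAP1;2 at 0.01 with the trend removed, with and without the block. With a library left out, HTA13 ranged from -0.17 to 0.03, HTA9 from -0.02 to 0.08, HTB7 from -0.28 to 0.30, NRP1 from -0.16 to 0.03, CDKB2;1 from -0.09 to 0.24 and KNOLLE from -0.34 to 0.17. All other tested members kept their sign in every fit, and pseudocounts of 0.1 and 1 changed no call among the 42. Depth limits HTR6, HTB7 and H1.3, which rest on few reads.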
